A study of Mus musculus with 9 samples.

Results

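The 9 genes described here mark B cells, plasma cells and the transport of immunoglobulin A (IgA) into the gut. They are Ms4a1, Cd79a, Cd79b, Cr2, Fcer2a, Cxcl13, Jchain, Mzb1 and Pigr, chosen by name, and each was followed through the probe sets that the array's annotation ties to that gene alone. They are 9 of the 18193 genes the arrays name and hold 13 of the 45037 probe sets. The brightest probe set of each gene stood for that gene, and all 9 of these passed the filter on low signals, as did 12 of the 13 probe sets.

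RNA came from scraped small-intestinal mucosa of male mice of the inbred strain C57BL/6J, which began a diet high in fat at 9 weeks of age and were sampled 2 weeks later. The small intestine was cut into 3 parts of like length, SI3 at the distal end, SI2 in the middle and SI1 at the proximal end. The HF-PO diet held palm oil, the HF-OO diet olive oil and the HF-SO diet safflower oil, and the labels give the lowest P/S value for HF-PO and the highest for HF-SO. The RNA of 6 mice was pooled for each diet and part, and each of the 9 pools was read on 1 Affymetrix array. Every group ate a high-fat diet, and a low-fat group was not analysed here. Each segment therefore has 3 pools and each diet has 1 pool per segment. The p-values for segments rest on how far the differences between segments vary from pool to pool. Each of these pools also ate a different diet, so that variation includes any effect of diet that differs between segments. The 3 segments of a pool come from the same mice, and pooling hides the spread between mice. Whether Peyer's patches were scraped with the mucosa is not given in the sources used here.

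B cells gather in the follicles of gut lymphoid tissue, where chemokines and complement receptors hold them near their antigens. Some become plasma cells that settle beneath the epithelium and secrete IgA as dimers joined by the J chain. Epithelial cells bind these dimers with the polymeric Ig receptor, carry them across the cell and release them into the lumen, where IgA coats bacteria. In the intestine, IgA is the main antibody class of these plasma cells.

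The start regions of the genes are shown as sequence only, and whether their letters bear on the direction of change along the intestine was not tested. RefSeq promoter windows on GRCm38.p6, reaching from 250 bases before to 50 bases after the start, were found for 6 of the 9 genes, in 8 windows. Each window was searched for 4 sets of letters. These were the octamer ATGCAAAT of immunoglobulin promoters, the E box CACGTG and the Ets core GGAAGT on either strand, and TATAAA on the coding strand. The Ets core, which is in the family of sites that B cell factors such as Spi-B and PU.1 bind, began 54 bases before the start of Cd79a, 130 bases before that of Cr2 and 113 bases before that of Fcer2a. That core was absent from the windows of Cxcl13, Jchain and Pigr and from the other windows of Fcer2a. Over all 32851 windows, 23.8% held it. The Pigr window held the E box from 71 bases before the start, a site type that upstream stimulatory factors bind, and 7.15% of all windows hold one. TATAAA lay 33 bases before the start of Fcer2a and 46 bases before that of Cxcl13, against 8.32% of all windows. None of the 8 windows held the octamer, which 1.74% of all windows hold, and the Jchain window held none of the 4. Capitals below mark these matches, read 5′ to 3′ on the strand of the gene, and a match describes the letters only. Cd79a lies at chr7:24897247-24897546 on the plus strand, Cr2 at chr1:195176670-195176969 on the minus strand and Fcer2a, in the first of its 3 windows, at chr8:3694125-3694424 on the minus strand. Jchain lies at chr5:88527848-88528147 on the minus strand and Pigr at chr1:130826434-130826733 on the plus strand.
Cd79a: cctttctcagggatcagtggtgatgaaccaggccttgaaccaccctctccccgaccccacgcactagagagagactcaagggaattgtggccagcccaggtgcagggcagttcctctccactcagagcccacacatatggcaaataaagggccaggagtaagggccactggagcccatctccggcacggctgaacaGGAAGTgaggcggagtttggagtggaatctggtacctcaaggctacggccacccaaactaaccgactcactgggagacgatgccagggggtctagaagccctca
Cr2: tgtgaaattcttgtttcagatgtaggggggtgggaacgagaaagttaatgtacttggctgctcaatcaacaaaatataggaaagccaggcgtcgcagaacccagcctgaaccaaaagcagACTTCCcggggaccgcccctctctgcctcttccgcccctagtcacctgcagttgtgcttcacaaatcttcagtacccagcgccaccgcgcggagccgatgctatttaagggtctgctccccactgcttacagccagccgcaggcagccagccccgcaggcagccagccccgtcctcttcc
Fcer2a: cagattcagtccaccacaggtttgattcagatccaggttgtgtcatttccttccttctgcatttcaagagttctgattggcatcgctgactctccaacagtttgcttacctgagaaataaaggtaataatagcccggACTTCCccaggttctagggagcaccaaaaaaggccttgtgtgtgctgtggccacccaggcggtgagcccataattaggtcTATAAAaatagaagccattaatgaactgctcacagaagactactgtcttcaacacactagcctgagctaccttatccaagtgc
Jchain: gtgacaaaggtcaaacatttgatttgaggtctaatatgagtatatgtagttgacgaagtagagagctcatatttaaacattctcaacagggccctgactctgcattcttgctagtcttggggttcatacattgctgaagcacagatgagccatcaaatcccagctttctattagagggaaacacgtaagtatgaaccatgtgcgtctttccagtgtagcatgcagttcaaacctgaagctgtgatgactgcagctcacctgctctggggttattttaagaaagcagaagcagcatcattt
Pigr: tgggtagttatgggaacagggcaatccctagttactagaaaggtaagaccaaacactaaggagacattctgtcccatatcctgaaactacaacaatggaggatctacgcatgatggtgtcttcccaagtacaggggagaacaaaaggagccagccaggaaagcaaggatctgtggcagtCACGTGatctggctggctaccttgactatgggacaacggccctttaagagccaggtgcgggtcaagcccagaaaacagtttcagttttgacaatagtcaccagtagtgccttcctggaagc

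SI3 was set against SI1 to see how these genes differ between the distal and the proximal end. All 6 genes of B cells and follicles were higher in SI3 and all 3 genes of plasma cells and IgA transport were lower. Changes are on the log2 scale of signal plus 16, where a change of 1 is a doubling, and a gene counted as changed at an adjusted p under 0.05 in limma's moderated test over 22519 probe sets. That rule called 44.3% of all probe sets tested between SI3 and SI1, 25.0% as higher and 19.2% as lower, so calls are common in this comparison. The arrays of SI3 and SI1 did not overlap for 9 of the 9 genes, nor for 55.4% of all probe sets tested. The median change of all probe sets tested was 0.077. In scraped tissue, fewer cells of a type and less RNA per cell cannot be told apart.

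**Figure D1:**
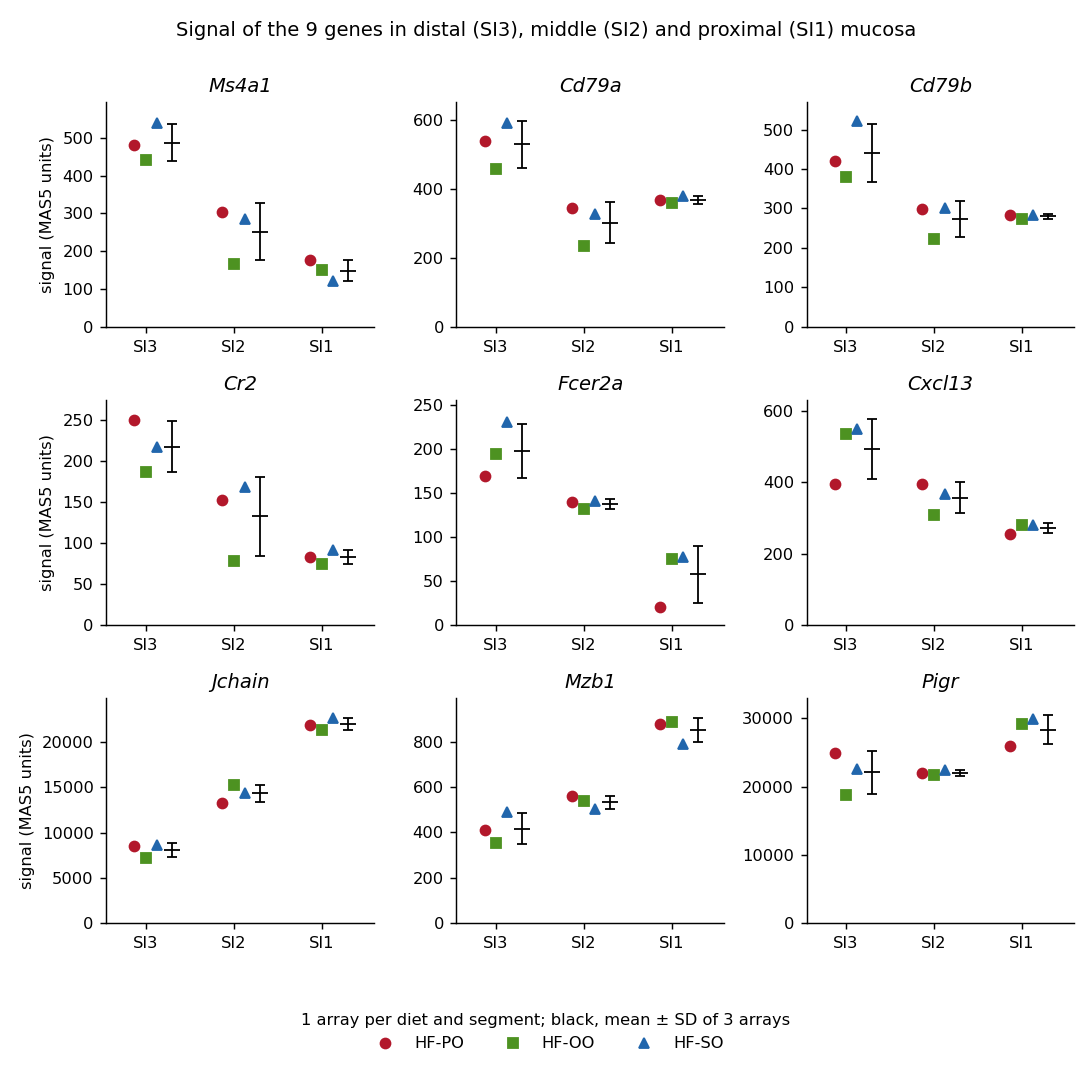
MAS5 signal (vertical axes, from 0) of the 9 genes in SI3, SI2 and SI1, with 1 point per array, coloured by diet, and the mean ± SD of the 3 arrays of a segment in black. The top 6 panels are highest in SI3, and in the bottom row the arrays of Jchain and Mzb1 are lowest in SI3 while Pigr is highest in SI1.

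Cd79a and Cd79b encode the paired signalling chains of the B cell receptor and both rose in SI3. Cd79a had signals of 540.4, 458.4 and 591.5 in SI3, against 346.3, 234.1 and 326.9 in SI2 and 367.2, 358.6 and 380.6 in SI1, in the HF-PO, HF-OO and HF-SO pools. All 3 SI3 arrays lay above all others, and the SI2 arrays lay below the SI1 arrays without overlap. Cd79a was 0.50 higher in SI3 than in SI1 (SE 0.11, adjusted p = 0.0110 in limma, higher in 3 of 3 pools). Without the HF-SO pool the change was 0.44 with an adjusted p of 0.0918, and without the filter on low signals the adjusted p was 0.0596. Cd79b had 420.4, 379.9 and 521.6 in SI3, against 297.6, 221.6 and 302.3 in SI2 and 284.3, 272.7 and 283.8 in SI1. Its SI3 arrays again stood above all others, while SI2 and SI1 overlapped. Cd79b was 0.61 higher in SI3 than in SI1 (SE 0.11, adjusted p = 0.00456 in limma, 3 of 3 pools).

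Ms4a1 encodes CD20, a surface protein of mature B cells. Its signals were 480.5, 441.4 and 539.2 in SI3, against 305.1, 165.3 and 284.0 in SI2 and 176.9, 149.8 and 120.4 in SI1. SI3 stood above both other segments, and the lowest SI2 array, that of HF-OO, lay within the SI1 range. Ms4a1 averaged 487.0 ± 49.2 in SI3 and 149.0 ± 28.3 in SI1 (SD, n = 3 pools each), a rise of 1.62 (SE 0.19, adjusted p = 0.00076 in limma, 3 of 3 pools). A second, dimmer Ms4a1 probe set rose by 0.73 (adjusted p = 0.00066).

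Cr2 encodes complement receptors CD21 and CD35, carried by mature B cells and follicular dendritic cells. It had signals of 249.2, 186.1 and 216.3 in SI3, against 152.0, 77.7 and 167.9 in SI2 and 82.8, 74.3 and 91.0 in SI1. The segments SI3 and SI1 were well apart, and the HF-OO array of SI2 sat at the SI1 level. The rise in SI3 over SI1 was 1.24 (SE 0.17, adjusted p = 0.00124 in limma, 3 of 3 pools). Fcer2a encodes CD23, the low-affinity IgE receptor of follicular B cells. Its signals were 169.4, 194.6 and 230.6 in SI3, against 140.0, 131.4 and 141.2 in SI2 and 20.0, 75.0 and 77.3 in SI1. No segment overlapped another, and the HF-PO array of SI1 was far below the other arrays. Fcer2a rose by 1.66 in SI3 over SI1 (SE 0.27, adjusted p = 0.00277 in limma, 3 of 3 pools). Without the HF-PO pool, where Ms4a1 gave 1.74, Fcer2a gave 1.31 (adjusted p = 0.0028). Its second probe set, with signals from 4.6 to 66.4, was below the filter and was not tested.

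Cxcl13 is the chemokine that draws B cells into follicles and is made by follicular stromal cells. It had signals of 396.4, 535.3 and 548.8 in SI3, against 396.0, 308.7 and 366.8 in SI2 and 255.3, 279.1 and 280.6 in SI1. The HF-PO arrays of SI3 and SI2 were almost equal, and all SI1 arrays lay below. Cxcl13 rose by 0.81 in SI3 over SI1 (SE 0.14, adjusted p = 0.00408 in limma, 3 of 3 pools), and its other probe set rose by 1.29 (adjusted p = 0.00071).

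Jchain, which links IgA into dimers and IgM into pentamers, fell the most of the 9 genes towards the distal end. Its signals were 8474.7, 7218.6 and 8648.6 in SI3, against 13308.5, 15248.9 and 14424.1 in SI2 and 21875.3, 21353.1 and 22659.5 in SI1. The 3 segments formed steps with no overlap. Jchain averaged 8114 ± 780 in SI3 and 21963 ± 658 in SI1 (SD, n = 3 pools each), a change of -1.44 (SE 0.10, adjusted p = 7.76e-05 in limma, lower in 3 of 3 pools). Mzb1, a chaperone of the endoplasmic reticulum that helps plasma cells assemble antibody, also fell in SI3 against SI1. It had 408.3, 350.6 and 489.1 in SI3, against 559.1, 538.3 and 502.1 in SI2 and 879.6, 886.9 and 789.7 in SI1. SI3 and SI2 came close in the HF-SO pool and SI1 lay clearly above both. The change of Mzb1 in SI3 against SI1 was -1.02 (SE 0.13, adjusted p = 0.00106 in limma, lower in 3 of 3 pools).

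Pigr, the epithelial receptor that carries dimeric IgA, changed least of the 9 genes between SI3 and SI1. Its signals were 24983.8, 18764.9 and 22551.9 in SI3, against 21925.1, 21650.0 and 22468.9 in SI2 and 25962.2, 29172.2 and 29944.9 in SI1. The SI1 arrays were above all others, but by little in the HF-PO pool, and SI3 spanned the SI2 values. Pigr fell by 0.37 in SI3 relative to SI1 (SE 0.12, adjusted p = 0.0418 in limma, lower in 3 of 3 pools). The call was lost without the HF-OO pool, where the change was -0.23 (adjusted p = 0.271), without the HF-SO pool (adjusted p = 0.184), without the SI2 array of HF-OO (adjusted p = 0.0617) and without the filter (adjusted p = 0.143), and a second Pigr probe set changed by -0.34 (adjusted p = 0.0577). Pigr signals reached 58.0% of an array's highest signal and Jchain signals 48.9%.

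**Figure D2:**
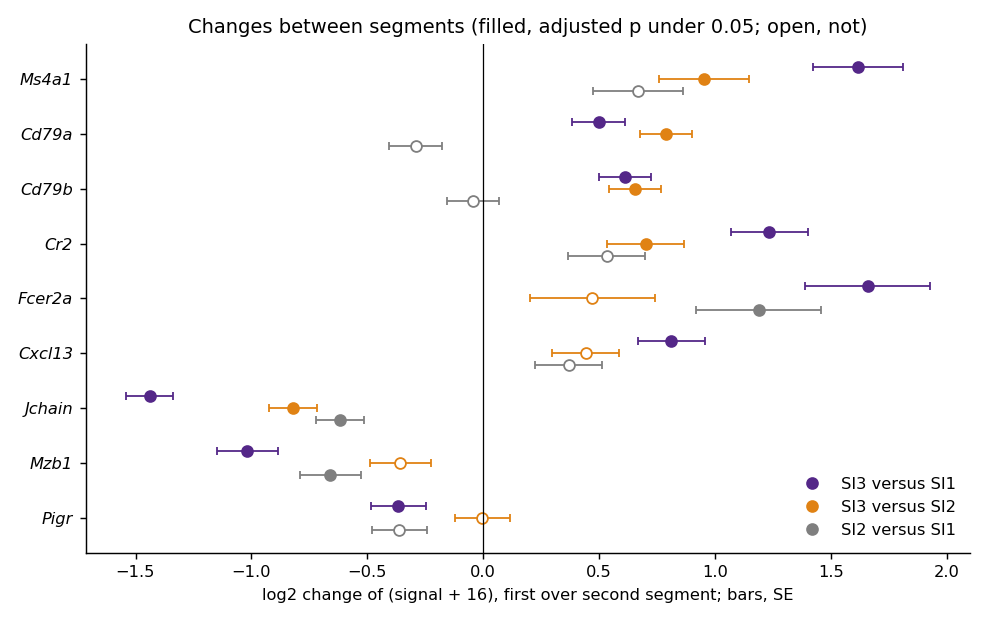
Change of each gene on the log2(signal + 16) scale (horizontal axis, SE bars) for SI3 over SI1, SI3 over SI2 and SI2 over SI1, with filled points for an adjusted p under 0.05. For SI3 over SI1 all 9 points are filled, from 1.66 for Fcer2a down to -1.44 for Jchain.

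The middle segment split the genes differently. Between SI3 and SI2, 4 of the 9 genes rose (Ms4a1, Cd79a, Cd79b and Cr2) and 1 fell (Jchain), against 21.3% of all probe sets called, 10.4% as higher and 10.8% as lower, with a median change of 0.035. Between SI2 and SI1, 1 rose (Fcer2a) and 2 fell (Jchain and Mzb1), against 15.0% of all called, 8.07% as higher and 6.92% as lower, with a median of 0.032. A test of any difference between the 3 segments called 8 of the 9 genes, all but Pigr (adjusted p = 0.0620 in limma's F test), and 40.7% of all probe sets. Pigr passed too, for 9 of 9, with no replicate block, with a pseudocount of 64 and with quantile normalization. The plot of changes by comparison shows Cd79b with almost no change in SI2 against SI1. Cd79a had its largest change in SI3 against SI2. It was lower in SI2 than in SI1 in 3 of 3 pools, without a call.

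For the receptor chains, SI3 was above SI2 by 0.79 for Cd79a (adjusted p = 0.00404 in limma) and by 0.66 for Cd79b (adjusted p = 0.0079), while SI2 against SI1 gave -0.29 (adjusted p = 0.128) and -0.044 (adjusted p = 0.824). Ms4a1 was 0.95 higher in SI3 than in SI2 (adjusted p = 0.0157) and Cr2 0.70 higher (adjusted p = 0.0258, or 0.0566 without the pool as a block). In SI2 against SI1 these came to 0.67 for Ms4a1 (adjusted p = 0.0611) and 0.53 for Cr2 (adjusted p = 0.0731). The second Ms4a1 probe set gave 0.67 in SI3 against SI2 (adjusted p = 0.00247) and 0.060 in SI2 against SI1 (adjusted p = 0.674). Fcer2a gave 0.47 in SI3 against SI2 (adjusted p = 0.256) and 1.19 in SI2 against SI1 (adjusted p = 0.0293). Without the HF-PO pool, whose SI1 signal was 20.0, both steps of Fcer2a passed, at 0.58 (adjusted p = 0.0404) and 0.72 (adjusted p = 0.0453). Whether the upper and the lower step of a gene differ from each other was not tested. Cxcl13 gave 0.44 in SI3 against SI2 (adjusted p = 0.0710, or 0.0485 without the block) and 0.37 in SI2 against SI1 (adjusted p = 0.130), and its other probe set gave 1.08 (adjusted p = 0.0038) and 0.21 (adjusted p = 0.386).

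Jchain fell at both steps, by 0.82 in SI3 against SI2 (adjusted p = 0.00237 in limma) and by 0.62 in SI2 against SI1 (adjusted p = 0.0113). Mzb1 fell by 0.66 in SI2 against SI1 (adjusted p = 0.0199) and gave -0.36 in SI3 against SI2 (adjusted p = 0.0990). Pigr gave -0.36 in SI2 against SI1 (adjusted p = 0.0846) and did not differ detectably between SI3 and SI2, where the change was -0.0042 (SE 0.12, adjusted p = 0.985). Of the calls that involve SI2, that of Jchain in SI3 against SI2 held whichever pool was left out. Its call in SI2 against SI1 was lost whichever pool was left out (adjusted p from 0.0590 to 0.0929), as was that of Mzb1 (adjusted p from 0.0612 to 0.116). The calls of Ms4a1 and Cr2 in SI3 against SI2 were also lost whichever pool was left out (adjusted p from 0.0526 to 0.115). In SI3 against SI2, Cd79a lost its call without the HF-SO pool (adjusted p = 0.0515). Cd79b lost its call there without HF-OO (adjusted p = 0.0709) and without HF-SO (adjusted p = 0.0620). Fcer2a lost its call in SI2 against SI1 without HF-OO (adjusted p = 0.0899) and without HF-SO (adjusted p = 0.0995).

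By their means, Ms4a1, Cr2, Fcer2a and Cxcl13 were highest in SI3, next in SI2 and lowest in SI1, and Jchain and Mzb1 were lowest in SI3, next in SI2 and highest in SI1. The test separated both pairs of neighbours in that order for Jchain, SI3 from SI2 for Ms4a1 and Cr2, SI2 from SI1 for Fcer2a and Mzb1, and neither pair for Cxcl13. Cd79a and Cd79b were highest in SI3 and lowest in SI2, and the test did not separate SI2 from SI1. Pigr had nearly equal means in SI3 and SI2 and its highest mean in SI1.

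Immunoglobulin genes also moved in both directions. Of 17 listed names, 8 were on the arrays by that name and 5 were tested, of which 2 rose and 3 fell in SI3 against SI1. Their median change was -0.43. Of all probe sets tested, 25.0% rose and 19.2% fell. Igha, the constant region of IgA, had 27566.7, 27275.5 and 25263.2 in SI3, against 34926.0, 35359.0 and 31780.7 in SI2 and 31618.9, 35945.8 and 40521.9 in SI1, in the HF-PO, HF-OO and HF-SO pools. SI3 lay below both other segments and SI2 lay within the range of SI1. Igha fell by 0.43 in SI3 relative to SI1 (adjusted p = 0.0222 in limma), on arrays whose highest signals were 44533.9 to 56944.2.

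The light chain probe sets had larger changes. Igk, named for the kappa locus, had 720.6, 348.6 and 631.6 in SI3, against 1357.4, 1148.2 and 785.2 in SI2 and 2928.6, 2222.9 and 1880.3 in SI1, with no overlap between segments. It changed by -2.06 in SI3 against SI1 (adjusted p = 0.000592 in limma) and Iglv1, a lambda variable segment, by -2.15 (adjusted p = 0.00014). Ighm, the constant region of IgM, which naive B cells carry as receptor, had 857.7, 672.6 and 744.4 in SI3, against 604.3, 534.8 and 531.8 in SI2 and 526.6, 559.5 and 550.1 in SI1. All SI3 arrays lay above the rest, and SI2 and SI1 overlapped. Ighm rose by 0.46 (adjusted p = 0.0105) and Ighv14-2, a heavy chain variable segment, by 1.76 (adjusted p = 0.000765). Antibody genes are near copies of each other, and the array's naming marks the Igha and Iglv1 probe sets as sharing probes with related transcripts, so none of these values is sure to be that of 1 gene.

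**Figure D3:**
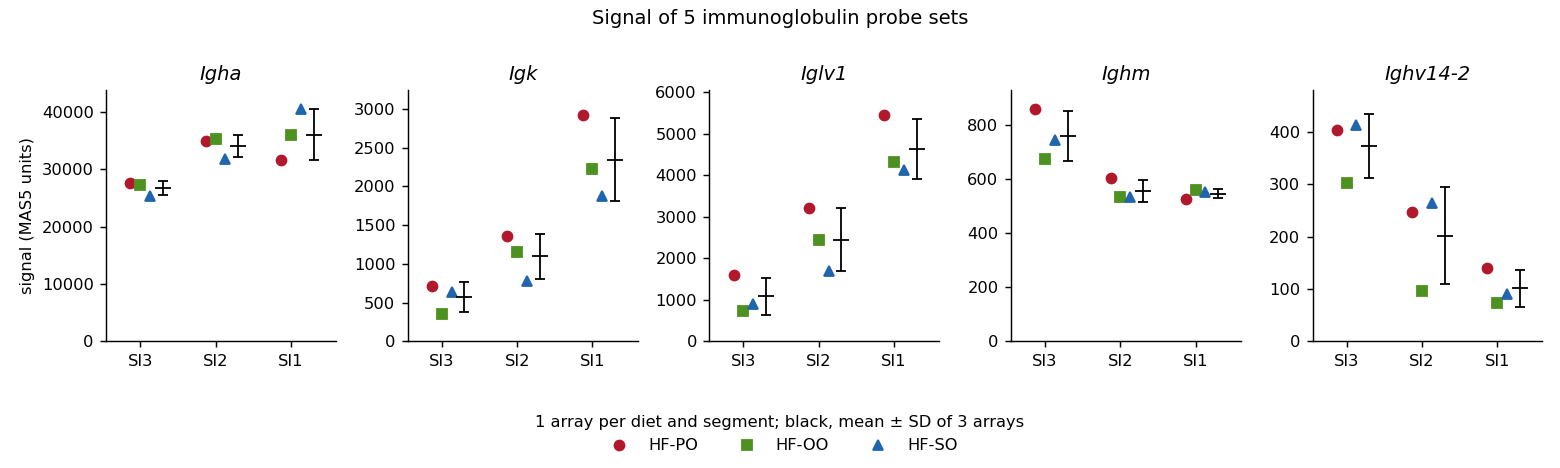
MAS5 signal (vertical axes, from 0) of the 5 immunoglobulin probe sets tested, in SI3, SI2 and SI1, with 1 point per array coloured by diet and the mean ± SD in black. Igha, Igk and Iglv1 are lowest in SI3, where Ighm averages 758.2 and Ighv14-2 373.1, above their means in SI2 and SI1.

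Other genes of B cell identity gave a mixed picture. Of 24 listed, 18 were tested, 6 rose and 3 fell in SI3 against SI1, and their median change was 0.32. Calls were about as common over all probe sets tested, at 44.3%, with 25.0% higher and 19.2% lower. Rises were those of Fcmr, the Fc receptor for IgM (1.10, adjusted p = 0.00102 in limma), H2-Ob, a chain of the H2-O complex that restrains peptide loading in B cells (1.03, adjusted p = 0.00619), the kinase Blk (0.91), the BAFF receptor Tnfrsf13c (0.62), Cd37 (0.58) and Swap70 (0.43). Without the HF-SO pool, 3 of the list rose. The falls were those of the adaptor Blnk (-1.15, adjusted p = 7.91e-05), Ly86 (-1.04, adjusted p = 0.00204) and Cd40 (-0.59, adjusted p = 0.0215), which macrophages and dendritic cells also make. Which cells gave the rises or the falls of this list was not tested. Cd22, an inhibitory receptor of B cells, gave 0.44 (adjusted p = 0.106) with signals of 471.1 ± 93.5 in SI3 and 340.4 ± 35.1 in SI1 (SD, n = 3 pools each). Of 6 tested genes of germinal centres, where B cells mutate their antibodies, Stmn1, a microtubule protein of dividing cells, rose (0.78, adjusted p = 0.00896) and 0 fell, with a median of -0.092. The master regulator Bcl6 gave 0.066 (adjusted p = 0.758).

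Of 15 tested plasma cell genes, 5 fell and 1 rose in SI3 against SI1, with a median change of 0.045. These 6 calls are a smaller share than the 44.3% of all probe sets called. Tnfrsf17, the receptor BCMA that keeps plasma cells alive, had 56.7 ± 37.8 in SI3, 175.3 ± 12.5 in SI2 and 194.9 ± 11.7 in SI1 (SD, n = 3 pools each). Its change was -1.72 in SI3 against SI1 (adjusted p = 0.00723 in limma). Derl3, which helps remove misfolded proteins from the endoplasmic reticulum, changed by -0.84 (adjusted p = 0.000755), Cd28 by -0.71 (adjusted p = 0.00512), the TACI receptor Tnfrsf13b by -0.49 (adjusted p = 0.0379) and the elongation factor Ell2 by -0.36 (adjusted p = 0.0152). Without the HF-OO pool, 3 of the list fell. Markers of T cells fell as well (median -1.32), and which cells gave the falls of this list was not tested. Sdc1, the plasma cell marker CD138 that epithelial cells also carry, rose by 1.00 (adjusted p = 0.000457). The secretory factor Xbp1, which epithelial cells use too, gave 0.068 (adjusted p = 0.519).

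Of 10 tested genes that induce IgA or bring its cells to the gut, 6 fell and 1 rose in SI3 against SI1, with a median of -0.47. Among all probe sets tested, 19.2% fell and 25.0% rose. Falls included Tgfb1, the cytokine that turns B cells towards IgA (-1.33, adjusted p = 5.12e-05 in limma), the retinoic acid enzyme Aldh1a2 (-1.31), the gut-homing receptor Ccr9 (-1.10) and the integrin chain Itgb7 (-0.80). Here too, which cells gave the falls was not tested. Ccl28, an epithelial chemokine for IgA plasma cells, rose, with signals of 1178 ± 227 in SI3 and 440.0 ± 60.8 in SI1 (SD, n = 3 pools each) and a change of 1.38 (adjusted p = 0.000514). Ccl25, the ligand of Ccr9, gave 0.14 (adjusted p = 0.298). Nos2, the inducible nitric oxide synthase, was below the filter on mean signal and was not tested, but had 294.7, 322.4 and 312.1 in SI3, against 16.8, 9.8 and 22.4 in SI2 and 7.2, 8.7 and 8.7 in SI1. Its SI3 arrays stood far above all others, a difference in the opposite direction to the 6 falls of this list.

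Around the follicle, 3 of 9 tested genes of its stroma and chemokines rose and 1 fell in SI3 against SI1, with a median of -0.052. The share called was near the 44.3% of all probe sets tested, of which 25.0% rose and 19.2% fell. Clu, a product of follicular dendritic cells among others, rose by 1.13 (adjusted p = 0.00172 in limma) and Ccr6, the receptor that draws B cells beneath the follicle epithelium, by 1.05 (adjusted p = 0.00336). Cr1l, a complement regulator, rose by 0.53 (adjusted p = 0.00651) and Vcam1, an adhesion molecule, fell by 0.87 (adjusted p = 0.0126). Of 8 tested genes of follicle-associated epithelium and M cells, which sample antigen over the follicles, 3 rose and 2 fell, with a median of -0.036. Spib, a factor of M cells and B cells, rose by 0.56 (adjusted p = 0.00393), Marcksl1 by 2.46 (adjusted p = 1.06e-05) and Ccl9 by 0.77 (adjusted p = 0.0237). Gp2, a receptor for bacteria on M cells that the pancreas also makes, fell by 1.54 (adjusted p = 0.000592) and Ctsh, a protease, by 0.69 (adjusted p = 0.00133). Gp2 was lowest in SI2, with means of 123.5 in SI3, 60.0 in SI2 and 385.1 in SI1. It was 0.86 higher in SI3 than in SI2 (adjusted p = 0.0155 in limma).

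Genes that regulate Pigr or move it through the epithelial cell moved in both directions. Of 14 tested, 6 rose and 2 fell in SI3 against SI1, with a median change of 0.28. Over all probe sets tested, 25.0% rose and 19.2% fell, so rises were the more common call there too. Relb, a subunit of NF-kB, rose by 1.31 (adjusted p = 0.000153 in limma) and Rab3d, a vesicle GTPase, by 0.80 (adjusted p = 0.00176). The IL-4 receptor chain Il4ra rose by 0.60 (adjusted p = 0.00779), and the vesicle genes Rab17, Myo5b and Rab11a by 0.57, 0.44 and 0.28. The kinases Fyn and Yes1 fell by 0.87 (adjusted p = 0.00339) and 0.54 (adjusted p = 0.0103). Which cells gave the changes of this list was not tested.

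**Figure D4:**
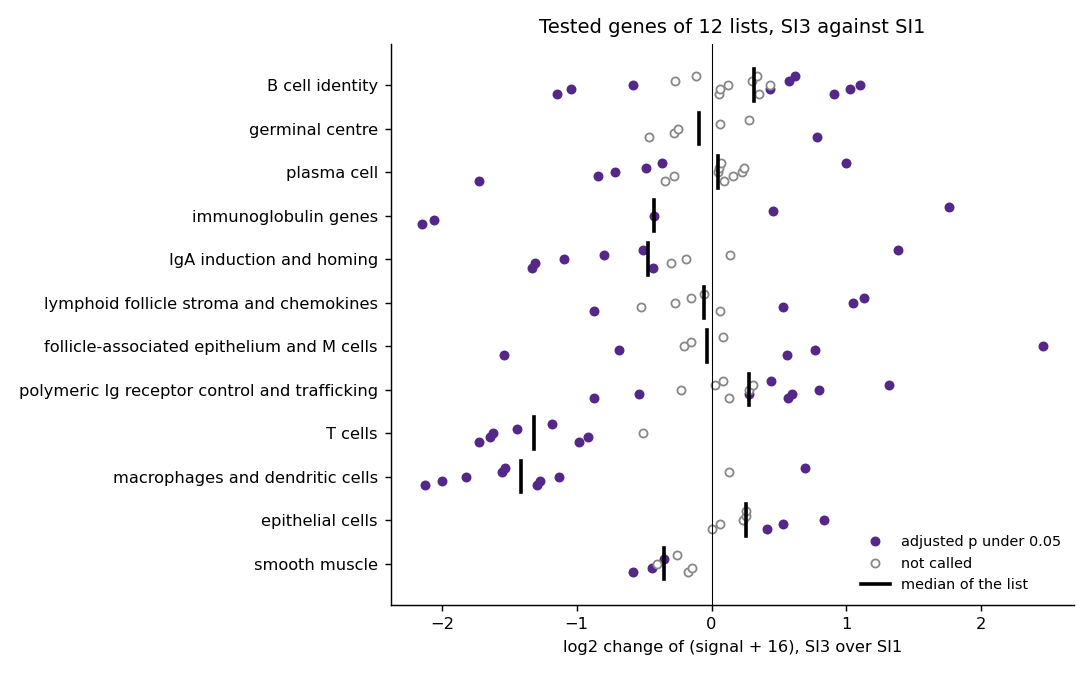
Change in SI3 over SI1 on the log2(signal + 16) scale (horizontal axis) of every tested gene of 12 lists, filled where the adjusted p was under 0.05, with a bar at each list's median. The medians of T cells (-1.32) and of macrophages and dendritic cells (-1.41) lie furthest to the left, while B cell identity (0.32) lies to the right of 0; the pancreas list, at -5.74, is outside the scale.

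Markers of other cell types also moved between these segments, where 25.0% of all probe sets tested rose and 19.2% fell in SI3 against SI1. Of 8 tested T cell markers 7 fell in SI3 against SI1 and 0 rose, with a median of -1.32 and summed signals of 4654 to 6995 in SI3 and 14156 to 18316 in SI1. Of 10 markers of macrophages and dendritic cells 8 fell and 1 rose, with a median of -1.41 and sums of 9878 to 11830 in SI3 and 16290 to 16788 in SI1. The 1 that rose, Lyz2, makes up most of the sums in SI3, with means of 7029.9 in SI3 and 4323.0 in SI1. Of 8 epithelial markers 3 rose and 0 fell, with a median of 0.26 and sums of 190714.5 to 196537.5 in SI3 and 145980.3 to 172303.4 in SI1. Of 7 smooth muscle markers 3 fell and 0 rose, with sums of 3334 to 3869 in SI3 and 4603 to 5017 in SI1. All 8 tested markers of the exocrine pancreas fell, with sums of 440.1 to 632.0 in SI3, 361.8 to 701.1 in SI2 and 32086 to 41669 in SI1, although the labels say that pancreatic tissue was removed. None of the markers of these 5 lists was under a signal of 16 on all 9 arrays. The part of these differences in the changes of the 9 genes was not tested.

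Across the 9 arrays, correlations between the genes followed their directions of change between segments. These correlations describe log2(signal + 16) over arrays that share segments and mice, so a difference between segments alone can produce them. Pearson's r between pairs of the 6 B cell and follicle genes ran from 0.35 to 0.95, and after each segment's mean was taken off from -0.29 to 0.94. Cd79a and Cd79b kept together within segments, with r of 0.95 before and 0.94 after. Jchain and Mzb1 had 0.94 before and 0.48 after. Between these plasma cell genes and the 6 others r ran from -0.94 to -0.36 before and from -0.50 to 0.54 after. Pigr had 0.74 and 0.81 with Jchain and Mzb1 before, and 0.64 and 0.34 after. With the 6 it ran from -0.73 to -0.02 before and from -0.37 to 0.43 after. Once segment means were taken off, the values within and between roles therefore overlapped.

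Among the 10976 other tested genes, the 5 most like each of the 9 were found by Pearson's r over the 9 arrays, which share segments and mice. The closest to Ms4a1 were Myo6 (0.995), Sh3glb2, Marveld2, Katna1 and Clca3b, and the closest to Jchain were Cbr3 (0.996), Tmem14c, Aldh1a3, Yaf2 and Iigp1. For Cd79b they were Nup210 (0.976), Spib (0.972), Ptger4, Zc3h12a and Zfyve9, and for Cd79a Tmem171 (0.960), Psmc2, Nup210, Cd79b (0.949) and Etv3. Cr2 was closest to Ccdc77 (0.972), Ighv14-2 (0.971), Dab1, Marveld2 and Arl1. Cxcl13 was closest to Mterf1a (0.980), Pdp1, Galnt5, Itgb6 and Ttll3, and Fcer2a to Clip4 (0.981), Mpp1, Cd300ld, Sdf2 and Toe1. Mzb1 was closest to Phf11d (0.986), Mcrip2, Opn3, Snx7 and Fuom, and Pigr to Tinagl1 (0.966), Fam83g, Tmed8, Epg5 and Stim1.

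The comparison of diets asked whether the source of fat altered these genes within a segment. Since each diet has 1 array per segment, differences between diets have no replicate and no p-value, and a gene counted as set apart when its signal plus 16 was above that of each other diet, or below it, by 1.5-fold or more. This held in 3 cases. Ms4a1 and Cr2 were lower in HF-OO in SI2, by 1.66-fold and 1.79-fold from the nearer diet, and Fcer2a was lower in HF-PO in SI1, by 2.53-fold. No member was set apart in SI3. At 2-fold, only the Fcer2a case was left. Over all probe sets tested, 2.54% were set apart in HF-PO, 1.72% in HF-OO and 1.64% in HF-SO in SI3. The shares were 1.61%, 1.95% and 1.39% for these diets in SI2, and 1.85%, 1.31% and 2.01% in SI1.

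The HF-OO array of SI2 was low in B cell genes of the 9 as a group. It held the lowest SI2 signal for all 6 B cell and follicle genes, and for 7 of the 9, while HF-OO was the lowest of the 3 diets in SI2 for 32.6% of all probe sets. The SI2 signals given above for Ms4a1, Cr2, Cd79a and Cd79b show this gap between HF-OO and both other diets. Of the other 18 genes of B cell identity, HF-OO was lowest in SI2 for 7. Without that array, an alternative chosen after its values were seen, Ms4a1 and Cr2 passed the test in SI2 against SI1. Their changes were 0.90 (adjusted p = 0.0364 in limma) and 0.76 (adjusted p = 0.0253). In the same fit Fcer2a (adjusted p = 0.0647) and Mzb1 (adjusted p = 0.0572) lost their calls in SI2 against SI1. Cr2 lost its call in SI3 against SI2 (adjusted p = 0.0623).

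In SI3 the HF-SO array held the highest signal for 7 of the 9 genes and the HF-OO array the lowest for 7 of the 9, against 35.0% and 31.1% of all probe sets. Of the 18 other genes of B cell identity, HF-SO was highest for 16, while HF-OO was lowest for 9 and HF-PO for the other 9. The differences were small, since the highest diet exceeded the lowest by 1.20-fold to 1.38-fold over the 9 genes in SI3, with a median of 1.33-fold. In SI2 this ratio ran from 1.04-fold to 1.96-fold, with a median of 1.27-fold, and in SI1 from 1.04-fold to 2.59-fold, with a median of 1.12-fold. Jchain, Mzb1, Pigr, Cd79a, Cd79b and Cxcl13 were set apart in no diet, which is the common case by the shares over all probe sets given above. Genes of 1 array share its RNA pool, so these counts are not independent observations.

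**Figure D5:**
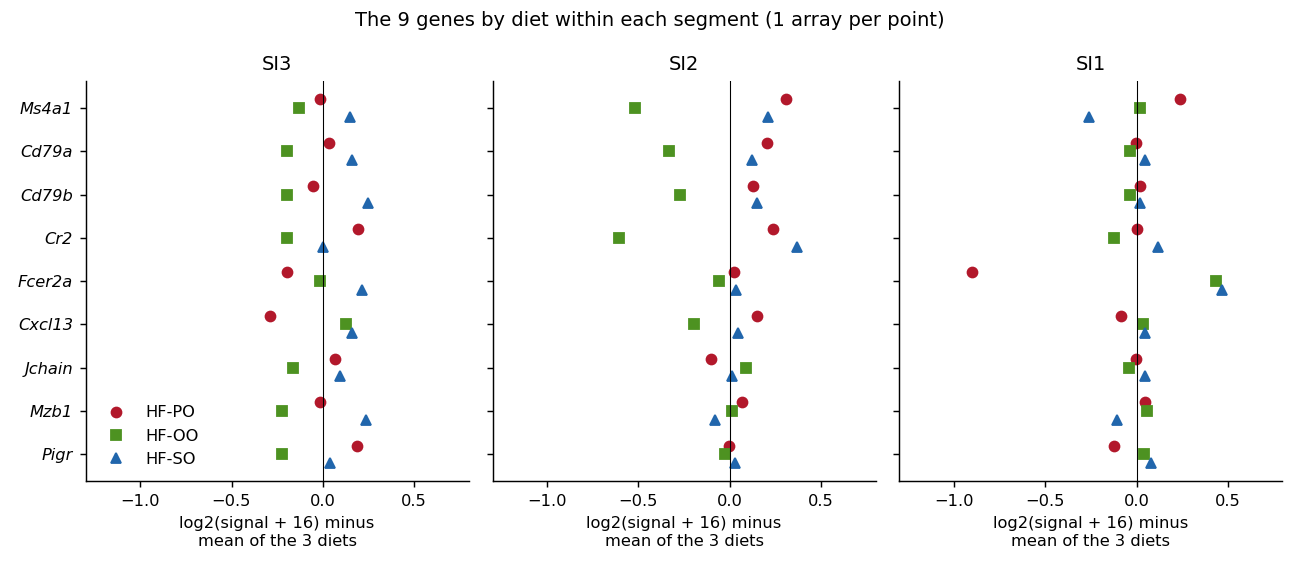
log2(signal + 16) of each of the 9 genes in each diet minus the mean of the 3 diets (horizontal axes), for SI3, SI2 and SI1, with 1 array per point. The HF-OO squares of SI2 lie left of 0 for the 6 B cell and follicle genes, and the HF-PO circle of Fcer2a lies far left in SI1.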

How the data were processed

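The 9 arrays were grouped by segment and diet as the labels give them. The authors deposited 1 signal intensity per probe set and array, on a linear scale, made with MAS5 per the submitters' processing notes, which give no version. They were used on the authors' scaling (array medians 94.4 to 105.9), after 64 of 45101 probe sets that are array controls were left out. Of the 45037 left, 34945 carry 1 gene symbol, 932 several and 9160 none in the platform annotation, and 34741 were matched by gene identifier to a RefSeq table on GRCm38.p6. Detection calls were not used.

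Signals were analysed as log2(signal + 16), and the 22519 probe sets at or above the median mean of 6.80 were tested. Segments were compared in limma 3.58.1 (R 4.3.3) with terms for segment and for diet pool, moderated variances, 4 residual degrees of freedom and Benjamini-Hochberg adjustment over all probe sets tested. Pool served as a block, since 1 set of 6 mice gave all segments of its diet. Departures from segment means correlated between arrays of a pool with r from -0.049 to 0.15, and between pools from -0.13 to 0.049. The fit was tested on simulated data, with 100 probe sets changed by 1.0 and 100 by 0.5 in SI3 against SI1. It called 93 of the first, 11 of the second and 3 of 22319 unchanged ones. A much smaller share was set to change there than was called in the data, so these rates need not hold for the data. Python 3.11.15 with numpy 2.4.6, pandas 2.3.3 and matplotlib 3.10.9 did the counts and plots. The number of arrays limits the precision.

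The members, the 13 gene lists (179 genes, 158 named on the arrays and 126 tested) and the tests were chosen with earlier results of these data known. Listed genes not named on the arrays were not analysed here. All members are named, with up to 4 examples or all called genes of a list and the 5 genes most like each member. Alternatives were pseudocounts of 1 and 64, no filter, quantile normalization, no replicate block, leaving out each pool, other probe sets of a gene and a 2-fold limit for diets. An alternative without the SI2 array of HF-OO was added after seeing the data.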

Additional observations from a re-analysis of the deposited data

How the results depend on the processing

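Between SI3 and SI1, the changes of the 9 genes kept their direction and their side of the threshold in 77 of 84 alternatives. The other 7 were lost calls of Cd79a and Pigr, given with those genes. The counts moved with the pools. Leaving out 1 pool or the SI2 array of HF-OO gave 5551 to 9270 probe sets called for SI3 against SI1 (9969 with all arrays), 537 to 1506 for SI2 against SI1 (3375), 1317 to 2394 for SI3 against SI2 (4787) and 3680 to 7649 for any segment (9154). Among the 9 genes, 0 to 2 were then higher (1) and 0 to 1 lower (2) in SI2 against SI1, 0 to 4 were higher in SI3 against SI2 (4), and 5 to 8 differed between any segments (8, or 9 with no replicate block, a pseudocount of 64 or quantile normalization). Fewer arrays enter these fits. With no filter, 604 probe sets were called for SI2 against SI1, 1681 for SI3 against SI2 and 4666 for any segment. No member then rose or fell in SI2 against SI1 (0 higher, 0 lower), and 1 rose in SI3 against SI2. With a pseudocount of 64, 2 members were higher in SI2 against SI1. The 2-fold limit left 1 member set apart by diet (3 at 1.5-fold). The fit with no replicate block called 10178, 3823, 5136 and 9716 probe sets for these comparisons, and it moved Cr2 (adjusted p = 0.0566) and Cxcl13 (adjusted p = 0.0485) across the threshold in SI3 against SI2.

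Signs turned for Cd79b in SI2 against SI1, to 0.035 without the SI2 array of HF-OO and 0.075 without the HF-OO pool (-0.11 to 0.075 over the pools left out). They turned for Pigr in SI3 against SI2, to 0.030 and 0.097 in the same fits (-0.10 to 0.097 over the pools) and 0.068 with its other probe set. The cause was not tested.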

Other observations

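Several genes of the lists had signals too low to be tested. Pax5, which sets B cell identity, ran from 14.7 to 162.2 over the 9 arrays, with the segments overlapping. Cxcr5, the receptor of Cxcl13, had 173.4, 145.0 and 172.1 in SI3, against 85.7, 74.7 and 87.6 in SI2 and 63.3, 63.1 and 54.2 in SI1, in the HF-PO, HF-OO and HF-SO pools. No segment of Cxcr5 overlapped another, and SI3 was highest, as for Cxcl13. Fcrla, a B cell protein related to Fc receptors, had 114.8, 95.0 and 95.5 in SI3, against 45.8, 84.8 and 59.3 in SI2 and 60.9, 71.5 and 48.4 in SI1, with SI3 above both other segments. Ccr10, the receptor of Ccl28 on IgA plasma cells, ran from 20.2 to 147.8. The cytokines Il5, Il6, Il10 and Il21, which help B cells mature, stayed at or below 64.1. Glycam1, an adhesion molecule of lymph node vessels, was between 3.6 and 13.1. Ighg3, a constant region of IgG, averaged 87.0 ± 15.5 in SI3, 62.8 ± 15.2 in SI2 and 95.8 ± 5.23 in SI1 (SD, n = 3 pools each), and these ranges were not compared by a test.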
